A study of Mus musculus with 6 samples.

Results

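Transcripts of 10 genes of transforming growth factor beta (TGF-beta) signalling and matrix crosslinking were followed across 3 groups of mouse muscle: Tgfb1, Tgfb2, Tgfb3, Ltbp2, Ccn2, Lox, Loxl1, Loxl2, Postn and Fn1. The genes were found on the arrays by the RefSeq transcript that each non-control probe carries as its name. This gave 15 probes of 55681 and 33 spots of 59305 per array, for 10 of 20972 gene symbols. Total RNA, labelled with the dye Cy3, was hybridised to 6 Agilent whole-genome arrays, 2 for each group. The MDX_JJ101 group consisted of MDX mice that had drunk JJ101, described in the labels as a bioceramic water. The MDX_tap group consisted of MDX mice given tap water, and the B10_tap group of C57BL/10 mice given tap water. Each group had been on its water for 10 months, and the age of the mice is not given in the sources used here. MDX mice carry a point mutation in the dystrophin gene and make no full-length dystrophin, so both MDX groups share that defect and differ in their water. The labels number the replicates without saying that they came from separate mice, so p-values measure the spread between these samples, which may be technical.

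TGF-beta ligands are secreted in a latent complex, tethered to the matrix by latent TGF-beta binding proteins, and act on cells once integrins or proteases have freed them. Their receptors phosphorylate SMAD proteins, which in fibroblasts raise the transcription of matrix genes such as Fn1, Postn and Ccn2. Lysyl oxidases (Lox and its relatives) oxidise lysines of collagen and elastin, which then form the covalent crosslinks that stiffen scar tissue. In dystrophic muscle this pathway is known for its part in the fibrosis that replaces lost fibres.

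Promoters of 4 of the 10 genes (Tgfb1, Tgfb2, Ltbp2 and Postn) were matched by symbol in a RefSeq table on build GRCm38.p6. The 250 bases before the start are shown for Tgfb1, whose levels were flat over the groups, and for Tgfb2 and Postn, the windows that held a searched motif. Capitals mark the letters of a searched motif.
Tgfb1 promoter, chr7:25686752-25687001, plus strand: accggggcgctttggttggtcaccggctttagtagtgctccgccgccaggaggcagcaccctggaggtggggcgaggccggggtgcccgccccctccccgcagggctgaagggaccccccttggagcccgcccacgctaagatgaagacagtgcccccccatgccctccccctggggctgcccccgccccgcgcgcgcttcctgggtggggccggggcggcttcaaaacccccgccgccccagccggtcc
Tgfb2 promoter, chr1:186705990-186706239, minus strand: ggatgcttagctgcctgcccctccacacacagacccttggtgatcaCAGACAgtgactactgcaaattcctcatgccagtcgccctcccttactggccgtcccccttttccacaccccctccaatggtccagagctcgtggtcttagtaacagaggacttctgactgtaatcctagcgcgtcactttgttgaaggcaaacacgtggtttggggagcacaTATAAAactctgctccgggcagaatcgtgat
Postn promoter, chr3:54360857-54361106, plus strand: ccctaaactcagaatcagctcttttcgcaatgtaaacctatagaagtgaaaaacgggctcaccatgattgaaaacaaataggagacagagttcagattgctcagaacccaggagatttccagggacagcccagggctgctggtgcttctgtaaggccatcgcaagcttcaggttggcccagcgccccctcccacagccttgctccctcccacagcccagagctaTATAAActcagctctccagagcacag
The motifs were searched on both strands. They were CAGACA (bound by SMAD proteins), GGAATG (TEAD), TGANTCA (AP-1, which includes the stricter TGACTCA) and TATAAA, a core promoter element. Tgfb2 held CAGACA 204 bases and TATAAA 31 bases before its start. Postn held TATAAA 26 bases before this start, and the window of its other annotated start held none of the motifs. The Tgfb1 window held none of the motifs and was 75.2% G or C, against 53.6% for Tgfb2 and 52.0% for Postn. Among 32851 promoters of the same length, 17.1% held CAGACA, 12.4% TATAAA, 12.6% GGAATG and 6.75% TGANTCA. The Ltbp2 window, of the member with the widest difference between groups, held none of the motifs and was 61.6% G or C. A match of letters is a description of the window and shows no binding.

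All 15 probes of the 10 genes were well above background on all 6 arrays, none was saturated, and all were kept. Spots well above background made up 43.8% and 42.5% of all spots in MDX_JJ101, 49.6% and 48.1% in MDX_tap, and 51.6% and 51.4% in B10_tap. The MDX_JJ101 replicates lay farthest apart, with an SD over all features of 0.48 for their difference, against 0.37 in MDX_tap and 0.29 in B10_tap on the log2 scale. The 6 arrays shared 1 slide, with MDX_JJ101 in row 2 (columns 3 and 4), MDX_tap in row 1 (columns 3 and 4) and B10_tap in row 1 (columns 1 and 2). An effect of the slide row and one of JJ101 cannot be told apart, nor can slide column and genotype. The tissue is labelled gastrocnemius, a limb muscle. Of 20 limb muscle markers 8 were well above background on every array, while Myod1, Myog, Myf5 and Mylpf were among those above it on none, and 14 of 16 heart markers were above background on every array. Dmd, the dystrophin gene, had log2 levels of -1.50 and -1.74 in MDX_JJ101, -0.84 and -0.27 in MDX_tap, and 1.06 and 1.06 in B10_tap. All 4 MDX arrays lay below both B10_tap arrays. The difference was -1.07 (adjusted p = 0.0205) for MDX_JJ101 against MDX_tap, -2.68 (adjusted p = 0.00646) for MDX_JJ101 against B10_tap, and -1.61 (adjusted p = 0.0717) for MDX_tap against B10_tap.

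Levels are given as the log2 of a probe's signal relative to the 75th percentile of its array, where 0 equals that percentile. They compare arrays for 1 probe and do not rank one gene against another.

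Among the ligands, Tgfb1, the form best known in muscle fibrosis, had levels of 0.85 and 0.93 in MDX_JJ101, 0.85 and 0.51 in MDX_tap, and 0.86 and 0.65 in B10_tap. The 3 groups overlapped, and no group stood apart. Its probe was spotted 10 times on each array, with an SD over the spots between 0.039 and 0.072. Tgfb2 had levels of 2.16 and 1.48 in MDX_JJ101, 1.77 and 1.79 in MDX_tap, and 1.09 and 1.15 in B10_tap. Both MDX groups lay above B10_tap, and the MDX_JJ101 arrays lay on either side of the MDX_tap arrays. Tgfb3 had levels of 3.13 and 2.95 in MDX_JJ101, 3.34 and 3.27 in MDX_tap, and 2.35 and 2.45 in B10_tap. Its groups did not overlap: MDX_tap was highest, MDX_JJ101 intermediate and B10_tap lowest. This probe was also spotted 10 times, with an SD over the spots between 0.036 and 0.056.

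Ltbp2 encodes a matrix protein of the latent TGF-beta binding protein family, which associates with fibrillin microfibrils. Its levels were 3.21 and 1.28 in MDX_JJ101, 3.17 and 3.34 in MDX_tap, and -0.057 and -0.099 in B10_tap. The first MDX_JJ101 array lay among the MDX_tap arrays and the second lay 1.93 below it. A gap between replicates as large as this was seen in 0.944% of all features in MDX_JJ101. All 4 MDX arrays lay above both B10_tap arrays.

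Ccn2 encodes connective tissue growth factor, a matricellular protein and target of both TGF-beta and the YAP and TAZ coactivators. It had levels of 5.45 and 5.18 in MDX_JJ101, 5.15 and 4.94 in MDX_tap, and 3.32 and 3.50 in B10_tap. Unlike the other members, its MDX_JJ101 arrays both lay above both MDX_tap arrays, by a small margin, and all 4 MDX arrays lay above B10_tap. That order of the MDX groups depended on the scaling of the arrays, as described for the comparison of the MDX groups.

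Postn encodes periostin, a matricellular protein of fibroblasts that binds collagen and promotes its crosslinking. Its levels were 2.77 and 1.42 in MDX_JJ101, 3.47 and 3.48 in MDX_tap, and 1.29 and 1.34 in B10_tap. Both MDX_JJ101 arrays lay below MDX_tap, the second only just above B10_tap. Fn1 encodes fibronectin, on which other matrix proteins assemble. It had levels of 4.19 and 3.35 in MDX_JJ101, 4.70 and 4.56 in MDX_tap, and 3.04 and 3.14 in B10_tap. The order of the groups was the same as for Postn, with no overlap. The gap between the MDX_JJ101 replicates was 1.35 for Postn and 0.84 for Fn1, and 2.50% and 6.65% of all features had a gap as large.

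Lox encodes lysyl oxidase itself. By the probe used for the gene the levels were -2.13 and -2.71 in MDX_JJ101, -1.56 and -1.52 in MDX_tap, and -2.93 and -3.10 in B10_tap. The second probe, with nearly the same mean over the 6 arrays, gave -1.88 and -2.82 in MDX_JJ101, -1.46 and -0.89 in MDX_tap, and -3.22 and -3.69 in B10_tap. Both probes placed MDX_tap highest, MDX_JJ101 next and B10_tap lowest with no overlap. Loxl1, the relative needed for elastic fibre upkeep, had levels of 3.46 and 3.09 in MDX_JJ101, 3.48 and 3.45 in MDX_tap, and 2.95 and 2.70 in B10_tap. The MDX groups overlapped and both lay above B10_tap. Loxl2, which crosslinks collagen IV of basement membranes, had levels of 2.20 and 1.98 in MDX_JJ101, 2.22 and 2.60 in MDX_tap, and 2.01 and 1.95 in B10_tap. MDX_tap lay above the other groups, which overlapped each other.

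**Figure D1:**
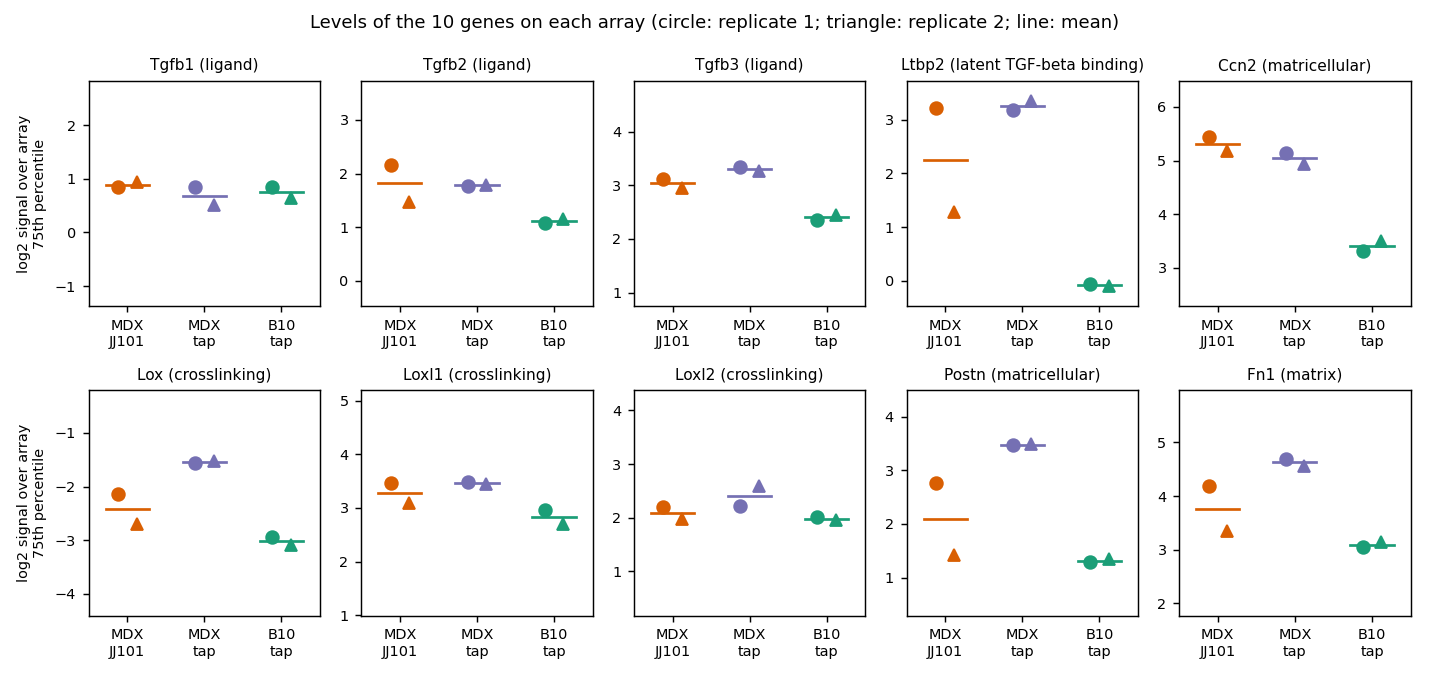
Levels of the 10 genes, 1 panel per gene, as log2 signal relative to the array's 75th percentile (vertical axis, spanning the same range in every panel) for MDX_JJ101, MDX_tap and B10_tap from left to right. Circles are replicate 1, triangles replicate 2 and lines the group mean; the wide gap between the MDX_JJ101 replicates of Ltbp2 (3.21 and 1.28) and Postn (2.77 and 1.42) and the flat levels of Tgfb1 can be seen.

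The first comparison, MDX_tap against B10_tap, concerned the dystrophic genotype on tap water. Ltbp2, Postn, Ccn2, Fn1 and Lox had the largest differences of the 10 genes, all towards higher levels in MDX_tap, but Lox only in some settings. Its difference of 1.47 was 0.63 under normexp with quantile normalization (Tgfb3 0.88) and 0.81 in the authors' table (Tgfb3 0.89). Ltbp2 averaged 3.26 ± 0.12 in MDX_tap and -0.078 ± 0.030 in B10_tap (SD, n = 2 each), a difference of 3.34 (SE 0.61), or 10.1-fold. For Postn the averages were 3.48 ± 0.012 in MDX_tap and 1.31 ± 0.033 in B10_tap, a difference of 2.16 (SE 0.43), or 4.47-fold. Each SE draws on the spread within all 3 groups, so it includes that of MDX_JJ101. The SD in MDX_JJ101 was 1.36 for Ltbp2 and 0.95 for Postn. The arrays of 9 of the 10 genes lay higher in MDX_tap without overlap, where 24.4% of all 20869 features tested did so. Tgfb1 was the exception, with a difference of -0.072 (95% interval -0.46 to 0.32). The members and the gene lists were chosen with earlier results of these data known. Their shares set against all features, here and below, are therefore descriptions.

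No single member passed the threshold in this comparison with all 3 groups fitted. By limma, 0 of 10 had an adjusted p under 0.05, while 0.024% of all features did, and 9 of 10 had an unadjusted p under 0.05, against 21.0% of all features. The smallest adjusted p belonged to Ccn2 (difference 1.63, SE 0.15, adjusted p = 0.0528). It was followed by Tgfb3 (0.90, SE 0.11, adjusted p = 0.0682) and Lox (1.47, SE 0.21, adjusted p = 0.0788). For Fn1 the difference was 1.54 (SE 0.28, adjusted p = 0.103), and the adjusted p was 0.103 for Ltbp2 and 0.110 for Postn. The remaining differences were 0.66 for Tgfb2, 0.64 for Loxl1 and 0.43 for Loxl2, with adjusted p between 0.148 and 0.226. The median difference of the 10 genes was 1.19, against -0.060 over all features. With only these 2 groups fitted, 5 of the 10 passed (Ltbp2, Ccn2, Lox, Postn and Fn1) beside 125 of all features. Using the values of the authors' table, 6 passed beside 337 of all features, and with the median as scaling 6 passed beside 285. All of these members were higher in MDX_tap.

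The second probes bore on these values. The second Lox probe gave a difference of 2.28 (SE 0.38, adjusted p = 0.0986 over all probes), against 1.47 by the one used. The 3 Loxl2 probes gave 0.43, 0.37 and 0.044, the second Loxl1 probe 0.26 and the second Tgfb2 probe 0.44. All these differences were positive, but they differed in size between probes of the same gene.

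The 7 lists of other genes of the pathway held no gene past the threshold in this comparison. The share of genes with a positive difference was 10 of 11 for ligand storage and release, 13 of 16 for receptors and SMADs, 14 of 15 for TGF-beta targets and 7 of 8 for inhibitors and antagonists. It was 16 of 19 for collagen maturation and crosslinking, 13 of 13 for the elastic fibre and 13 of 16 for matricellular proteins, against 41.6% of all features. The list of inhibitors and antagonists also held the activin subunit gene Inhba and the activin receptor gene Acvr2b. The matricellular list also held the integrin subunit genes Itga5, Itgb1 and Itgav, so these counts are not of inhibitors or matricellular proteins only. Median differences ran from 0.22 for receptors and SMADs to 1.02 for the targets. Spp1 (osteopontin, a cytokine and matrix protein) was well above background on both MDX_tap arrays and neither B10_tap array. It was at least 17.1-fold higher in MDX_tap, where the bound is taken against the lowest signal called well above background on each B10_tap array. Tnc (tenascin C) was likewise at least 4.34-fold higher. The limma fit used the measured B10_tap signals instead, with differences of 4.65 for Spp1 (adjusted p = 0.0595) and 3.52 for Tnc (adjusted p = 0.104).

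In the same comparison Fst, which encodes the activin antagonist follistatin, differed by 2.51 (SE 0.34, adjusted p = 0.0735), and Fbln1, the elastic fibre protein fibulin 1, by 1.81 (SE 0.27, adjusted p = 0.0858). Adamts2, which removes the amino propeptide of procollagen, differed by 1.30 (SE 0.21, adjusted p = 0.0922). The receptor gene Tgfbr1 differed by 0.84 and Skil, a SMAD-binding repressor induced by TGF-beta, by 1.04. Fibroblast markers had a positive difference in 12 of 12 genes (median 0.47) and macrophage markers in 10 of 11 (median 0.62). None passed the threshold with the 75th percentile as scaling. Of the fibroblast markers 1 was called higher under normexp, with the median and in the authors' table, and 0 with spike-in scaling. Of the macrophage markers 0 were called under each of these. The summed signal of the 12 fibroblast markers, in units of the array's 75th percentile, was 1068 and 1139 in MDX_tap and 797 and 765 in B10_tap. All 12 were well above background on every array, and their part in the differences above was not tested. In bulk RNA, more or fewer cells of a type and more or less RNA per cell cannot be told apart.

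**Figure D2:**
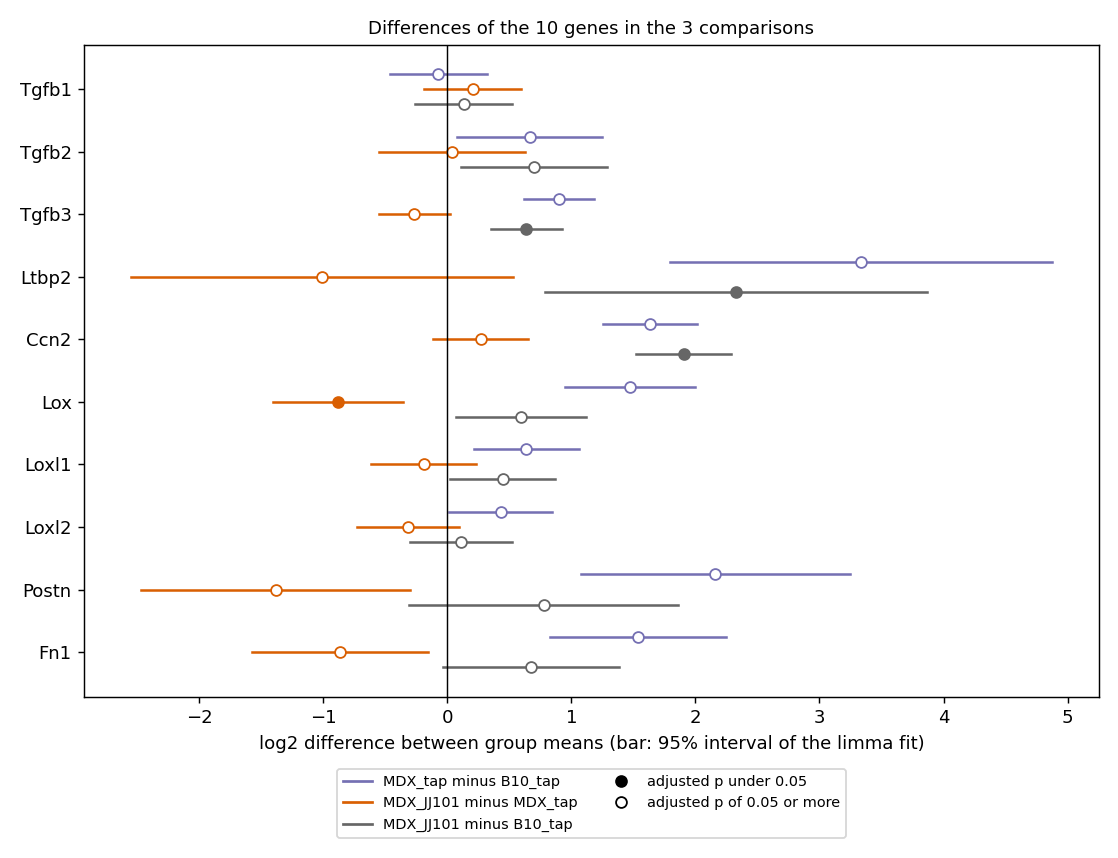
Difference between group means on the log2 scale (horizontal axis) for each of the 10 genes in the 3 comparisons, with the 95% interval of the limma fit as a bar. Filled points had an adjusted p under 0.05: Lox in MDX_JJ101 against MDX_tap (-0.88), and Tgfb3 (0.64), Ltbp2 (2.33) and Ccn2 (1.90) in MDX_JJ101 against B10_tap.

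The second comparison, MDX_JJ101 against MDX_tap, concerned the water in mice of the same genotype. Lox fell, Postn, Fn1 and Ltbp2 had lower averages that did not pass the threshold, and the ligands Tgfb1 and Tgfb2 and the target Ccn2 had positive differences, also short of it. Lox averaged -2.42 ± 0.41 in MDX_JJ101 and -1.54 ± 0.029 in MDX_tap (SD, n = 2 each), a difference of -0.88 (SE 0.21, 1.84-fold lower, adjusted p = 0.0291). It was the only one of the 10 genes past the threshold, where 16.1% of all features were called lower and 36.1% were called in either direction, so the count of members did not stand above the background. Within slide column 3 the Lox difference was -0.57 and within column 4 it was -1.19. Lox lay near the low end of the measured range, which differed between the groups. The lowest level called well above background was -3.33 and -3.29 on the MDX_JJ101 arrays. On the MDX_tap arrays it was -4.14 and -3.90. The part of this low end in the Lox difference was not tested.

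The size of the Lox difference depended on the processing: it was -0.41 under normexp with quantile normalization, -0.54 in the authors' table, -0.65 with the median and -1.31 with spike-in scaling, and it passed in each of these. The Lox call ended with the slide column as a block (adjusted p = 0.0713) and with only these 2 groups fitted (0.0645). It also ended without B10_tap replicate 1 (0.0687) or replicate 2 (0.0705) and without MDX_tap replicate 1 (0.0986) or replicate 2 (0.107), and the difference was -1.17 without MDX_JJ101 replicate 1 and -0.59 without replicate 2. The second Lox probe had a difference of -1.17 (SE 0.38, adjusted p = 0.0662 over all probes).

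Postn averaged 2.09 ± 0.95 in MDX_JJ101 and 3.48 ± 0.012 in MDX_tap, a difference of -1.38 (SE 0.43, adjusted p = 0.0564). Fn1 averaged 3.77 ± 0.59 in MDX_JJ101 and 4.63 ± 0.094 in MDX_tap, a difference of -0.86 (SE 0.28, adjusted p = 0.064). Postn passed with the authors' table (-1.42, adjusted p = 0.0177) and Fn1 likewise (-1.11, adjusted p = 0.0111), and both passed with spike-in scaling, with normexp and quantile normalization and with probes above background on all 6 arrays. The size of both differences depended on which MDX_JJ101 array was used. Without MDX_JJ101 replicate 1 they were -2.06 for Postn (adjusted p = 0.0041) and -1.28 for Fn1 (adjusted p = 0.0121), and without replicate 2 they were -0.71 (adjusted p = 0.032) and -0.44 (adjusted p = 0.0774). Within slide column 3 the differences were -0.70 and -0.51, and within column 4 they were -2.07 and -1.22, in the order Postn and Fn1. Ltbp2 depended on it most: its difference of -1.01 (SE 0.61, adjusted p = 0.234) became -1.98 (adjusted p = 0.00748) without MDX_JJ101 replicate 1 and -0.047 (adjusted p = 0.803) without replicate 2.

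Among the ligands, Tgfb3 differed by -0.26 (SE 0.11, adjusted p = 0.118). It passed with a difference of -0.43 under normexp with quantile normalization (adjusted p = 0.015) and in the authors' table (adjusted p = 0.0213), and was -0.70 with spike-in scaling (adjusted p = 0.227) and -0.038 with the median (adjusted p = 0.831). Tgfb2 differed by 0.037 (SE 0.23, adjusted p = 0.91) and Tgfb1 by 0.21 (SE 0.15, adjusted p = 0.324). The 95% interval for Tgfb1 ran from -0.18 to 0.60 and that for Tgfb2 from -0.55 to 0.62. Loxl2 differed by -0.32 (SE 0.16, adjusted p = 0.176), with -0.42 and -0.20 by its other probes. Loxl1 differed by -0.19 (SE 0.17, adjusted p = 0.399), and its second probe gave 0.20.

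Counted by arrays, Tgfb3, Lox, Loxl2, Postn and Fn1 lay lower in MDX_JJ101 without overlap, 5 of 10 members where 35.4% of all features did so. Ccn2 was the 1 member that lay higher without overlap, as 37.3% of all features did. In both slide columns 6 members were lower in MDX_JJ101, against 40.2% of all features. The median difference of the 10 genes was -0.29 and that of all features 0.00086.

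Ccn2 differed by 0.27 between MDX_JJ101 and MDX_tap (SE 0.15, 95% interval -0.11 to 0.65, adjusted p = 0.205). Its direction was not fixed by the data: the difference was 0.50 with the median as scaling (adjusted p = 0.0419), -0.17 with spike-in scaling, -0.026 after normexp and quantile normalization, and -0.025 in the authors' table. The median and spike-in scalings moved all genes together, by 0.23 for the median and -0.43 for the spike-in RNA at the median of all features. Normexp with quantile normalization and the authors' table moved genes by unequal amounts. A ratio of 2 probes within an array is free of the median and spike-in scalings only. It was formed for Ccn2, and its partners chosen, after their differences had been seen, so the ratios are given as a description with no test. Relative to its mean in B10_tap, the log2 ratio of Ccn2 to Postn was 0.59 and 1.67 in MDX_JJ101 and -0.41 and -0.64 in MDX_tap. The ratio of Ccn2 to Fn1 was 0.94 and 1.52 in MDX_JJ101 and 0.14 and 0.058 in MDX_tap. The ratio of Ccn2 to Lox was 1.16 and 1.46 in MDX_JJ101 and 0.29 and 0.034 in MDX_tap. For these genes both MDX_JJ101 arrays lay above both MDX_tap arrays, as the choice of partners largely fixes. The ratio of Ccn2 to Tgfb1 was 1.95 and 1.59 in MDX_JJ101 and 1.64 and 1.77 in MDX_tap, and that of Ccn2 to Tgfb2 was 1.00 and 1.41 in MDX_JJ101 and 1.09 and 0.85 in MDX_tap, so for these ligands the MDX groups overlapped. For Ltbp2 the ratio was -1.25 and 0.41 in MDX_JJ101 and -1.51 and -1.89 in MDX_tap, with the wide gap between replicates again.

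**Figure D3:**
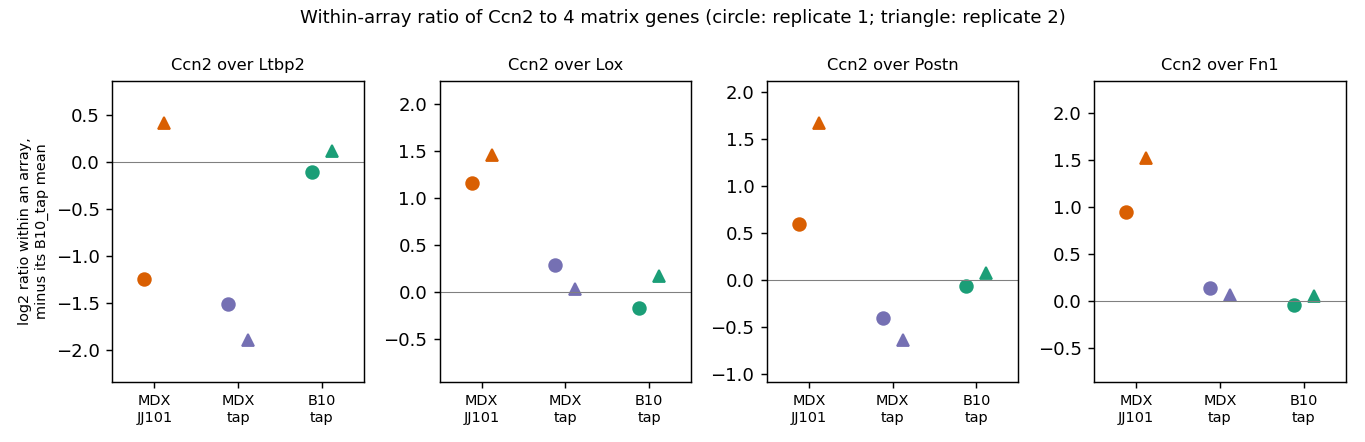
Log2 ratio of Ccn2 to Ltbp2, Lox, Postn and Fn1 within each array, minus the mean ratio of the B10_tap arrays (vertical axis, 0 marks that mean), for MDX_JJ101, MDX_tap and B10_tap from left to right. Circles are replicate 1 and triangles replicate 2; in every panel both MDX_JJ101 arrays lie above both MDX_tap arrays.

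**Figure D4:**
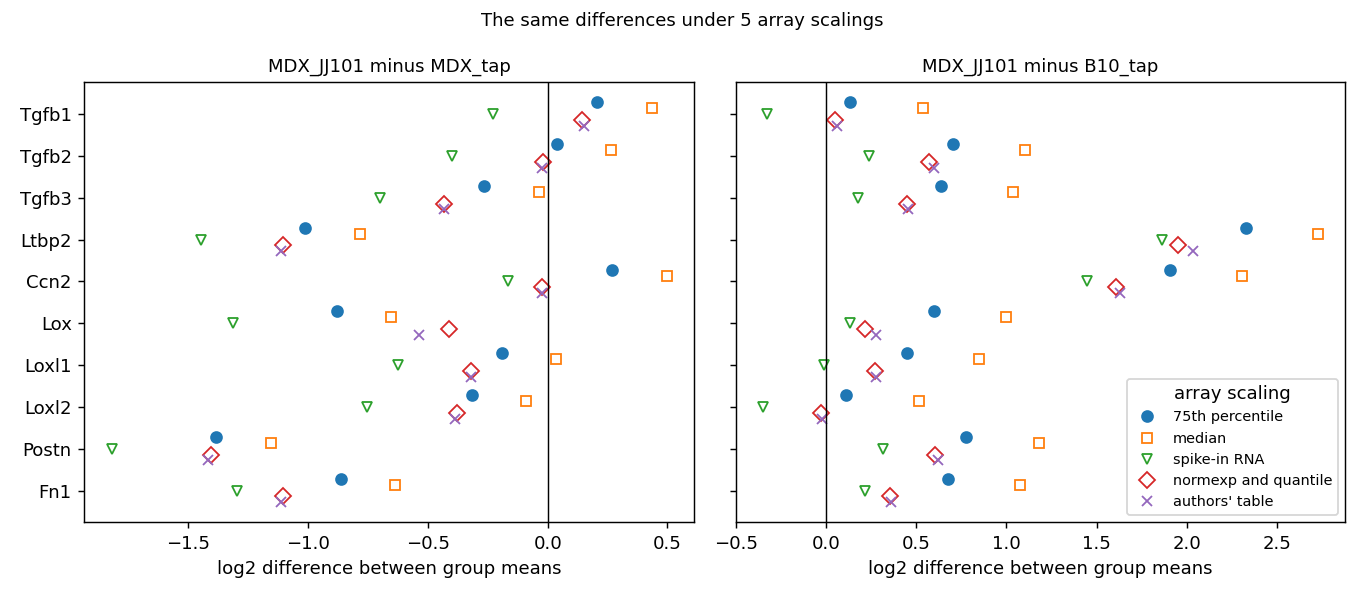
Differences of the 10 genes on the log2 scale (horizontal axis) under 5 ways of scaling the arrays, for MDX_JJ101 minus MDX_tap on the left and MDX_JJ101 minus B10_tap on the right. Lox, Postn, Fn1, Ltbp2, Tgfb3 and Loxl2 stay below 0 on the left under all 5, while Ccn2 runs from -0.17 to 0.50.

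Among other genes of the pathway, ligand storage and release had 1 of 11 genes higher and 3 lower in MDX_JJ101 than in MDX_tap (median -0.64), where 19.9% of all features were called higher and 16.1% lower. With the slide column as a block limma called 0 of 20869 features (8857 at an unadjusted p under 0.05), so every call of the lists and markers in this comparison ends there. That fit held the MDX arrays alone, in which slide column and replicate number are the same split. With the replicate number as a block over all 6 arrays, limma called 6517 features. The balance of the release list also turned with the scaling, to 3 higher and 1 lower with the median, against 2 and 7 under normexp with quantile normalization, 1 and 7 in the authors' table and 0 and 6 with spike-in scaling. Itgb5, an integrin subunit, rose by 0.45 (adjusted p = 0.0256). Itgav, the integrin subunit that pairs with it to free latent TGF-beta, fell by 1.18 (adjusted p = 0.0389). Lrrc32, which tethers latent TGF-beta to the cell surface, fell by 0.79 (adjusted p = 0.0213) and Ltbp1, a latent TGF-beta binding protein, fell by 0.72 (adjusted p = 0.0264). Of 16 genes for receptors and SMADs, 2 rose and 3 fell (median -0.21). With the median as scaling 3 were called higher and 2 lower and the list's median was 0.019, whereas 2 and 7 were called under normexp and in the authors' table, and 0 and 4 with spike-in scaling. Smurf1, a ubiquitin ligase that marks receptors and SMADs for degradation, rose by 1.32 (adjusted p = 0.0144). Tgfbr1, the type I receptor, fell by 0.78 (adjusted p = 0.018), and the feedback genes Skil and Smad7 fell by 1.20 (adjusted p = 0.0153) and 0.77 (adjusted p = 0.0289).

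TGF-beta targets split, with 3 of 15 called higher and 6 lower (median -0.60). Ccn1, a relative of Ccn2 that was chosen after its value was seen, rose by 0.79 (adjusted p = 0.0407). Spp1 was at -1.77 and -2.91 in MDX_JJ101 and at 0.30 and -0.47 in MDX_tap, a difference of -2.26 (SE 0.45, adjusted p = 0.0204). Tagln, a smooth muscle and myofibroblast actin-binding protein, fell by 0.61 (adjusted p = 0.0286). With spike-in scaling 0 of the 15 were called higher and 6 lower by limma, and with the median 3 were called in each direction.

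Of the other genes of collagen maturation and crosslinking, 6 of 19 were called higher and 1 lower in MDX_JJ101, with a median of -0.0027. Tgm2, a transglutaminase that crosslinks matrix proteins, rose by 0.78 (adjusted p = 0.0141). The lysyl hydroxylases Plod1 and Plod3 rose by 0.84 (adjusted p = 0.0266) and 0.45 (adjusted p = 0.0394), and the prolyl hydroxylase subunit P4ha2 by 0.69 (adjusted p = 0.0157). The gene called lower, named after its value was seen, was Plod2, which hydroxylates the telopeptide lysines that Lox acts on. These counts depended on the scaling: 0 higher and 1 lower by limma with spike-in scaling, and 3 higher and 6 lower both in the authors' table and under normexp with quantile normalization. The elastic fibre list had 0 of 13 higher and 2 lower (median -0.51), namely Efemp1 (-1.31, adjusted p = 0.0131) and Fbln5 (-0.78, adjusted p = 0.0137), which encode fibulins.

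In the matricellular list, which includes integrin subunits, 2 of 16 genes rose and 4 fell (median -0.53). Itga5, a subunit of the fibronectin receptor, rose by 0.51 (adjusted p = 0.0277), while Sparcl1 and Thbs2, a thrombospondin, fell by 0.65 (adjusted p = 0.0219) and 0.51 (adjusted p = 0.0224). The list of inhibitors and antagonists, which includes Inhba and Acvr2b, had 2 of 8 genes higher and 1 lower. Fstl3, an activin antagonist, rose by 0.64 (adjusted p = 0.0155) and Bmp7 rose by 0.93 (adjusted p = 0.0154). Dcn, the proteoglycan decorin that binds TGF-beta, fell by 1.25 (adjusted p = 0.013). The genes picked by the naming rule in these lists kept their direction under every alternative tried, but not every call held. With spike-in scaling the elastic fibre, matricellular and inhibitor lists had 0 higher each and 6, 6 and 3 lower. With the median they had 0, 2 and 2 higher and 2, 3 and 1 lower. The differences of Fstl3, Bmp7 and Itga5 were as low as 0.21, 0.49 and 0.074 over the alternatives, with adjusted p up to 0.783, 0.437 and 0.931 by limma. Ccn1 and Plod2, which the rule did not pick, were not followed through the alternatives.

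Markers of other cell types moved in the same comparison. Of 12 fibroblast markers 0 were called higher and 5 lower (Pdgfra, Gsn, Scara5, Lum and Dcn, named after their values were seen), with a median of -0.67. Their summed signal was 666 and 517 in MDX_JJ101 and 1068 and 1139 in MDX_tap. Bright markers such as Dcn carry much of this sum, with log2 levels of 8.06 and 7.61 in MDX_JJ101 and 9.02 and 9.14 in MDX_tap. Dcn is also in the list of inhibitors and antagonists. Of 11 macrophage markers 1 was called higher and 6 lower (median -0.65), and the summed signal was 117.5 and 110.2 in MDX_JJ101 against 166 and 135 in MDX_tap. All 12 fibroblast and 11 macrophage markers measured were well above background on every array. Endothelial markers had 0 of 12 higher and 6 lower, adipocyte markers 1 of 6 higher and 5 lower (median -2.23), limb muscle markers 3 of 15 higher and 8 lower (median -2.51), and heart markers 4 of 15 higher and 0 lower (median 0.23). The limb muscle and adipocyte medians were farther from 0 than those of fibroblasts and macrophages. The summed signal of the 20 limb muscle markers nonetheless lay higher, at 275 and 300 in MDX_JJ101 against 159 and 175 in MDX_tap. That of the adipocyte markers lay lower, at 194 and 173 against 289 and 272. Only 8 of the 20 limb muscle markers were well above background on every array, and a sum follows the brightest markers. The heart count was 0 higher and 1 lower with spike-in scaling. Smooth muscle and pericyte markers had 2 of 12 higher and 4 lower, and tendon and cartilage markers 1 of 7 in each direction. The part of these shifts in the differences of Lox, Postn, Fn1 and Ltbp2 was not tested.

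**Figure D5:**
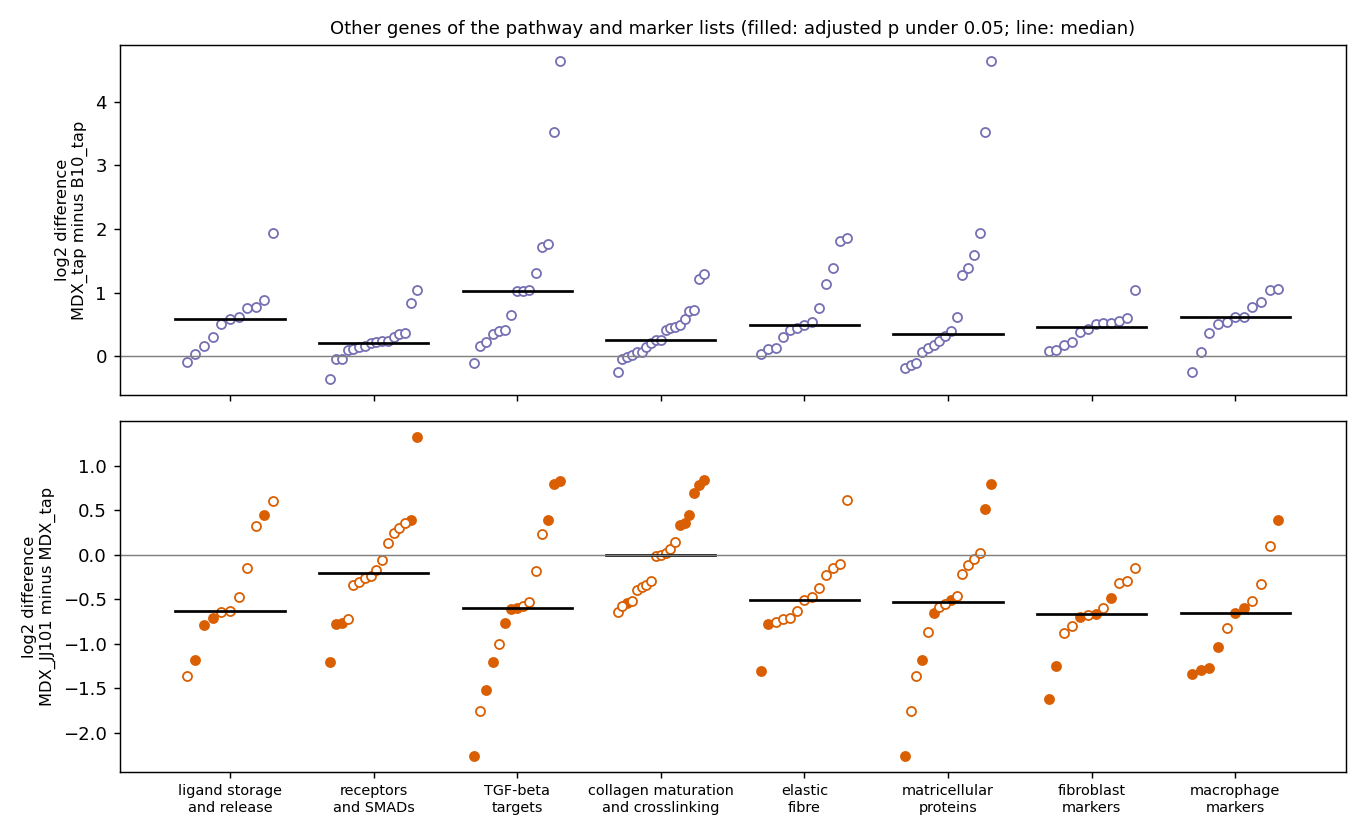
Log2 differences (vertical axes) of the other genes of 6 pathway lists and 2 marker lists, for MDX_tap minus B10_tap above and MDX_JJ101 minus MDX_tap below; each point is a gene, filled where the adjusted p was under 0.05, and the line is the median of the list. No point is filled above; the topmost points there are Spp1 and Tnc, whose fitted values rest on B10_tap signals not well above background and which are in both the target and the matricellular list.

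The third comparison set MDX_JJ101 against B10_tap, which differed in both genotype and water. Ccn2 rose 3.74-fold, Ltbp2 5.01-fold and Tgfb3 1.56-fold. These 3 of 10 genes passed the threshold, all higher in MDX_JJ101, where 16.2% of all features were called higher, 17.4% lower and 33.6% in either direction. Ccn2 averaged 5.31 ± 0.19 in MDX_JJ101 and 3.41 ± 0.13 in B10_tap (SD, n = 2 each), a difference of 1.90 (SE 0.15, adjusted p = 0.00646), and it passed under all 16 alternatives, with adjusted p between 0.00211 and 0.0429. Tgfb3 averaged 3.04 ± 0.12 in MDX_JJ101 and 2.40 ± 0.072 in B10_tap, a difference of 0.64 (SE 0.11, adjusted p = 0.0172). Ltbp2 averaged 2.25 ± 1.36 in MDX_JJ101 and -0.078 ± 0.030 in B10_tap, a difference of 2.33 (SE 0.61, adjusted p = 0.0392).

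The Tgfb3 call ended with spike-in scaling (difference 0.18, adjusted p = 0.821) and without B10_tap replicate 1 (0.111) or replicate 2 (0.0911). The Ltbp2 call ended with only these 2 groups fitted (0.0698), without either B10_tap replicate (0.153 and 0.154) and without either MDX_tap replicate (0.0721 and 0.0757), and its difference was 1.36 without MDX_JJ101 replicate 1 and 3.29 without replicate 2.

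The other members did not pass. Tgfb2 differed by 0.70 (SE 0.23, adjusted p = 0.0688), Lox by 0.60 (SE 0.21, adjusted p = 0.077) and Loxl1 by 0.45 (SE 0.17, adjusted p = 0.0923). Fn1 differed by 0.67 (SE 0.28, adjusted p = 0.117) and Postn by 0.78 (SE 0.43, adjusted p = 0.206). Without MDX_JJ101 replicate 1 the differences of Fn1 and Postn were 0.25 and 0.10, and without replicate 2 Postn differed by 1.45 (adjusted p = 0.0071) and Fn1 also passed (adjusted p = 0.0184). The first MDX_JJ101 array thus lay well above B10_tap for both genes, and the second lay near it. Loxl2 differed by 0.11 (95% interval -0.30 to 0.53) and Tgfb1 by 0.14 (95% interval -0.26 to 0.53). The arrays of 8 of the 10 genes lay higher in MDX_JJ101 without overlap, against 37.9% of all features, and the median difference was 0.66, against -0.0064 over all features.

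Of the other TGF-beta targets 5 of 15 rose and 0 fell in MDX_JJ101 against B10_tap. This became 9 higher and 0 lower with the median and 3 higher and 1 lower with spike-in scaling. Acta2, the smooth muscle actin of myofibroblasts, rose by 0.89 (adjusted p = 0.0209), and Spp1 was at least 3.58-fold higher. The limma fit on the measured Spp1 signals gave a difference of 2.39 (adjusted p = 0.0196). In collagen maturation and crosslinking 8 of 19 rose and 0 fell, among them Tgm2 (0.85, adjusted p = 0.0126), P4ha2 (0.68, adjusted p = 0.0172), Crtap (0.58, adjusted p = 0.0155) and P4hb (0.57, adjusted p = 0.0171). With spike-in scaling none of these 19 passed in either direction.

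Ligand storage and release had 2 of 11 higher and 1 lower: Ltbp3 rose by 0.84 (adjusted p = 0.00996), Itgb5 by 0.75 (adjusted p = 0.0116), and Lrrc32 fell by 0.62 (adjusted p = 0.0383). With the median as scaling 5 were called higher and 0 lower, and with spike-in scaling 0 higher and 2 lower (median -0.22). Of the receptor and SMAD genes 3 of 16 rose, namely Smad3 (0.65, adjusted p = 0.0155), Pmepa1 (0.62, adjusted p = 0.0142) and Smurf1 (0.96, adjusted p = 0.0259), and 0 fell. This became 8 higher and 0 lower with the median and 0 higher and 1 lower with spike-in scaling. The elastic fibre list had 2 of 13 higher and 1 lower, the list of inhibitors and antagonists 3 of 8 higher and 1 lower, and the matricellular list 2 of 16 in each direction. In the same order, the median as scaling called 6, 5 and 6 higher and 0 lower in each list. Spike-in scaling called 0, 0 and 2 higher and 1, 1 and 2 lower. Fibroblast markers had 0 of 12 higher and 2 lower and macrophage markers 0 of 11 in either direction, and the summed fibroblast signal of 666 and 517 in MDX_JJ101 lay below the 797 and 765 of B10_tap. The fibroblast list's median difference was -0.27, and it was 0.13 with the median as scaling (1 called higher and 1 lower). The 3 comparisons share groups in pairs, so their differences are not independent of each other.

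Among themselves, 9 of the 10 genes correlated positively with the mean of the others over the 6 arrays. The correlation was highest for Ltbp2 (r = 0.995), Tgfb3 (0.97), Loxl1 (0.97) and Fn1 (0.96), lower for Ccn2 (0.81) and Loxl2 (0.78), and -0.17 for Tgfb1. These are descriptions over 6 arrays in 3 groups and carry the group differences. The 6 other genes whose levels were most like the mean of the 10, among 3798 whose levels spanned at least 1 on the log2 scale, were Cpz, Comp, Fbln7, Adamts2, Fbln1 and Mfap5, with r between 0.990 and 0.998. Comp, cartilage oligomeric matrix protein, had levels of 3.04 and 0.91 in MDX_JJ101, 3.02 and 3.08 in MDX_tap, and -0.26 and -0.37 in B10_tap. Like Ltbp2, it had the first MDX_JJ101 array among the MDX_tap arrays and the second far below. The 6 genes were picked for a pattern like the members' mean, which favours such a likeness.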

How the data were processed

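Transcript levels on 6 one-colour Agilent arrays were compared between the 3 groups of 2 that the labels give. Per the labels, intensity values were extracted by the authors with Agilent Feature Extraction, version 11.5.1.1 per the submitters' processing notes. The deposited processed signal is an intensity after subtraction of the background, and deposited 0 or 1 flags mark saturated spots, outlier spots and spots well above background. Per the file headers the design is annotated on mm9. A series table deposited by the authors holds log2 values, ranked within each array exactly as its median spot signals (Spearman correlation of 1), with medians from 5.74 to 5.76. It served as an alternative, and how it was made is not given in the sources used here.

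Each level was the log2 processed signal less the array's 75th percentile over 59305 non-control spots. Outlier spots were dropped (3 among the members' spots), and the remaining spots averaged by probe. Of 55681 probes, 27258 were well above background in both replicates of a group and were kept. The brightest probe stood for its gene, which gave 20869 features (13952 with a symbol, 6917 without) with 8 missing values. Names came from the RefSeq accessions of a GRCm38.p6 table, which matched 27656 probes. Signal over background bounds the low end of the measurable range, and precision is limited by having 2 arrays in a group. One limma model (version 3.58.1, R 4.3.3) held all groups, with 3 residual and 2.21 prior degrees of freedom. P-values were two-sided and adjusted over all features by Benjamini-Hochberg, with a threshold of 0.05. The steps were tested on simulated data.

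Alternatives were the replicate number or slide column as a block, normexp (offset 50) with quantile normalization, other filters, other uses of a gene's probes, only 2 groups fitted, median or spike-in scaling (7 probes), the authors' table, and each array left out. The column block was fitted on the MDX arrays alone, in which it is the same split as the replicate number. Normexp was run on the median spot signal, the spot brightness that the files used here hold. The labels state no pairing by replicate number, and with 2 arrays in a group the data could not decide whether there was one. Same-numbered deviations correlated over all features at 0.16 between MDX_JJ101 and MDX_tap, which share slide columns. The correlation was -0.064 between MDX_JJ101 and B10_tap and -0.031 between MDX_tap and B10_tap. The members and the gene lists were chosen with earlier results of these data known. The genes named were the members, Dmd, the 6 genes most like the members' mean, and up to 4 genes with the smallest p among those past the threshold in each pathway list and comparison (the 2 with the smallest p where none passed). Some genes that this rule names are not reported here.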

Additional observations from a re-analysis of the deposited data

How the results depend on the processing

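Of 30 member differences, 22 kept their direction under every alternative. All 4 that passed the threshold did, and 1 (Ccn2 in MDX_JJ101 against B10_tap) passed under every one. The 62 differences of the list genes that the rule names and of Dmd kept their direction, and 2 of the 48 that passed did so throughout. No cause of a change below was tested. For MDX_tap against B10_tap, the 5 genes past the threshold became 405 with normexp and quantile normalization, 0 with no filter (5113 at an unadjusted p under 0.05), 151 with probes above background on all 6 arrays, 15 with every probe, 125 with 2 groups, 285 with the median, 413 with spike-in scaling, 337 in the authors' table and 17 to 190 with 1 array left out. The 0 members past it became 6, 3, 5, 6, 5 and 6 under normexp, the 6-array filter, 2 groups, the median, spike-in scaling and the authors' table, and 0 to 4 with 1 array left out (4 without MDX_JJ101 replicate 1, 2 without replicate 2). For MDX_JJ101 against MDX_tap, 7529 genes became 0 with the slide column as a block (8857 at an unadjusted p under 0.05), 13640 with no filter, 3247 with 2 groups, 3771 with spike-in scaling and 0 to 7975 with 1 array left out (0 by limma without B10_tap replicate 2, with 8859 at an unadjusted p under 0.05, and 300 without MDX_tap replicate 2). The 1 member became 0 with the column block, 4 under normexp, 3 with the 6-array filter, 0 with 2 groups, 3 with the median, 4 with spike-in scaling, 4 in the authors' table and 0 to 4 with 1 array left out. For MDX_JJ101 against B10_tap, 7008 genes became 14092 with no filter, 4448 with spike-in scaling and 412 to 7201 with 1 array left out (625 without B10_tap replicate 1 and 412 without replicate 2), and 3 members became 9 with the median and 1 to 7 with 1 array left out (7 without MDX_JJ101 replicate 2). Calls higher and lower in MDX_JJ101 against MDX_tap were 4160 and 3369, but 5692 and 1898 with the median and 78 and 3693 with spike-in scaling; against B10_tap they were 3376 and 3632, but 8457 and 1645, and 105 and 4343. The replicate numbers as a block left 0, 1 and 3 members called in the order of the comparisons, and 4, 6517 and 5863 genes. In the MDX arrays this is the same split as the slide column, whose fit held those arrays alone.

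Differences that turned were all short of the threshold. In MDX_tap against B10_tap, Tgfb1 was 0.10 with the median, 0.031 without B10_tap replicate 1 and 0.097 without MDX_tap replicate 2, with a range of -0.24 to 0.097 over single arrays left out. In MDX_JJ101 against MDX_tap, Tgfb2 was -0.021 under normexp, -0.40 with spike-in scaling, -0.023 in the authors' table and -0.30 without MDX_JJ101 replicate 1, with a range of -0.30 to 0.38 over single arrays left out. Ccn2 was -0.026, -0.17 and -0.025 under normexp, spike-in scaling and the authors' table, Tgfb1 was -0.23 with spike-in scaling, and Loxl1 was 0.0043 with the mean of its probes and 0.037 with the median. In MDX_JJ101 against B10_tap with spike-in scaling, Tgfb1 was -0.33, Loxl1 -0.014 and Loxl2 -0.35, and Loxl2 was also -0.029 under normexp, -0.027 with the mean of its probes and -0.024 in the authors' table. With 2 arrays a group, a single array can decide a value, and a change too small for this spread would not have been seen.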
